A study of Mus musculus with 8 samples.

Results

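The 9 genes described here, B2m, Tap1, Tap2, Tapbp, Psmb8, Psmb9, Psmb10, Nlrc5 and Erap1, make the peptides, the transporter and the light chain that MHC class I molecules need, and they were chosen by name out of 19938 genes measured. All 9 had a probe set that the platform's annotation gives to that gene alone, and for Nlrc5, which had 19, the probe set with the highest mean over all arrays stood for the gene. Total RNA was measured on 8 expression arrays of 1 colour, 4 labelled KLF7 and 4 labelled control. KLF7 is a zinc finger transcription factor of the Krüppel-like family. The KLF7 group were c-Kit+ bone marrow cells of C57Bl/6 mice transduced with a lentivirus that expresses KLF7, and the control group were the same kind of cells transduced with a control virus. In both groups the lineage-negative, c-Kit+, Sca-1+ cells (KLS cells), a fraction enriched for stem cells and early progenitors, were sorted 72 hours after transduction, and their RNA was amplified. The labels do not say what the control virus carried, whether transduced cells were separated from untransduced ones, the age of the mice, or whether the arrays came from separate mice or cultures. The p-values therefore measure spread among arrays only, and that spread may be technical.

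MHC class I molecules show peptides from the cell's own proteins to cytotoxic T cells, on nearly every nucleated cell. The proteasome cuts proteins in the cytosol, the TAP transporter carries the peptides into the endoplasmic reticulum, and a loading complex places them on a heavy chain bound to beta-2 microglobulin. Interferons, interferon-gamma above all, raise the transcription of most genes of this path. NLRC5 is the activator that acts at class I promoters as CIITA does at those of class II.

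The promoters of B2m and of the Psmb9 and Tap1 pair are shown because they hold matches to some of the elements listed below. Psmb9 and Tap1 are also read in opposite directions from the same stretch. The sequences are RefSeq's, of build GRCm38.p6, and 7 of the 9 genes had a promoter window there (250 bases before to 50 after the start site), all but Tap2 and Nlrc5. Capitals mark matches, on either strand, to the core of the interferon-stimulated response element (GAAANNGAAA), a kB element bound by NF-kB (GGGANTTTCC), the X2 box (TGACG), the CCAAT box (CCAAT), the gamma-activated site (TTCNNNGAA) and a GC or CACC box of the kind Krüppel-like factors bind (CCNCNCCC). No marked match overlaps another in these 3 sequences, and the elements were chosen with the sequences in view.
B2m, chr2:122147437-122147686, + strand, the bases before the start: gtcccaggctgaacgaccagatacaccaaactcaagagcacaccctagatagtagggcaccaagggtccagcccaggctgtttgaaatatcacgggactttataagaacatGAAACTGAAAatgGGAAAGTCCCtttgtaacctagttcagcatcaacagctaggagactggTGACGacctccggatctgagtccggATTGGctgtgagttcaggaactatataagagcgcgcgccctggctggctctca
Psmb9 and Tap1, chr17:34187331-34187555, + strand, the 225 bases between both starts: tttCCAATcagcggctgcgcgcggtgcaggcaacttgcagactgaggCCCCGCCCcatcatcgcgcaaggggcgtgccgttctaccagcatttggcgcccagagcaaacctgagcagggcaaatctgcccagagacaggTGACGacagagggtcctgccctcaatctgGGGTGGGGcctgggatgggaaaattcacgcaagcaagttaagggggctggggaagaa
Erap1, chr13:74639841-74639866, + strand, around the start that RefSeq's promoter window uses: accttcacTTTCACTTTCggtcccgg

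In the B2m window the response element core began at position -139 from the start, the kB element at -126, an X2 box at -78 and a CCAAT box at -53. The Psmb9 and Tap1 stretch held a CCAAT box, an X2 box that lies at -86 from Tap1 and at -144 from Psmb9, and 2 boxes of the Krüppel kind. It held no match to the response element core, the kB element or the gamma-activated site. Across the 7 windows the response element core was in 2 (B2m and Erap1), against 3.44% of 32851 promoter windows. The kB element was in 1 (B2m), against 0.411%, and the X2 box in 3 (B2m, Tap1 and Psmb9), against 20.8%. The CCAAT box was in 4 (B2m, Tap1, Tapbp and Psmb9), against 37.4%, and the gamma-activated site in 1 (Psmb8), against 8.3%. The Krüppel-type box was in 4 (Tap1, Tapbp, Psmb8 and Psmb9), against 49.5%, with overlapping matches in Psmb8. Tap1 and Psmb9 share their stretch, so its boxes count for both genes. RefSeq's promoter table places the Erap1 start at 74639853, while its gene record begins at 74639573. The Psmb10 window held none of these letters, and a match is a description of letters, not of a bound site.

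Klf7, the transduced gene, was at 11.43, 10.19, 11.05 and 10.52 log2 intensity on KLF7 arrays 1 to 4, against 8.53, 10.28, 9.35 and 7.98 on control arrays 1 to 4. The groups overlapped in 1 pair, as control 2 had more Klf7 signal than KLF7 2, so every direction below is that of the labels. Some sort and cell type markers were lowest or highest on the arrays numbered 4 in both groups. Kit, the receptor used in the sort, was the 1 of 7 stem and progenitor markers that was lowest there, against 18.5% of all genes. It was at 7.85 on KLF7 4 and 8.33 on control 4. On the other arrays it was at 9.96 to 10.52 (KLF7) and 9.57 to 9.85 (control). Cd34, Flt3 and Slamf1 (3 of 7) were highest there in both groups, as were 18.9% of all genes. Of 10 T and NK cell markers 3 were lowest there. Ly6a, which encodes Sca-1, is not analysed here. Of 5 B cell markers none and of 10 T and NK cell markers 1, Klrd1 (2.01 log2 higher on the KLF7 arrays, 4.02-fold, adjusted p = 0.368 in limma), had an unadjusted p under 0.05, against 8.21% of all genes. An array's dim values do not show whether a lineage gene is absent. Array medians lay between 46.2 and 54.1 intensity units, and the number of arrays limits the precision of each difference. In bulk RNA, fewer cells of a type and less RNA per cell cannot be told apart.

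The design asks which genes differ between KLF7-overexpressing and control cells. For the class I genes all 9 intervals of the difference included 0. They reached as far as -0.83 (Psmb10) and 1.32 log2 (Psmb9), so larger differences than those seen are not excluded. Of the 9, 7 had a mean that was higher in KLF7 cells, against 50.4% of all genes, and the median difference was 0.17 log2, against 0.0019 over all genes. The differences ran from -0.17 (Erap1) to 0.42 (Psmb9). Leaving out KLF7 2 brought the median to its lowest with 1 array omitted, 0.03, leaving out control 4 to its highest, 0.28, and it was -0.037 without both KLF7 2 and control 2, the arrays whose Klf7 levels overlapped. In limma, adjusted over all 19938 genes, 0 of 9 passed 0.05, with a smallest adjusted p of 0.767 (Tap1), and 0 of all genes passed (0%). At an unadjusted p under 0.05 it was 0 of 9, against 8.21% of all genes. The KLF7 and control arrays overlapped for each of the 9, and 5.22% of all genes had no overlap, so 0 of 9 is near that share. The exact permutation test also had 0 of 9 under 0.05. With 70 splits only groups without overlap can get there, so this count repeats the one before it.

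**Figure D1:**
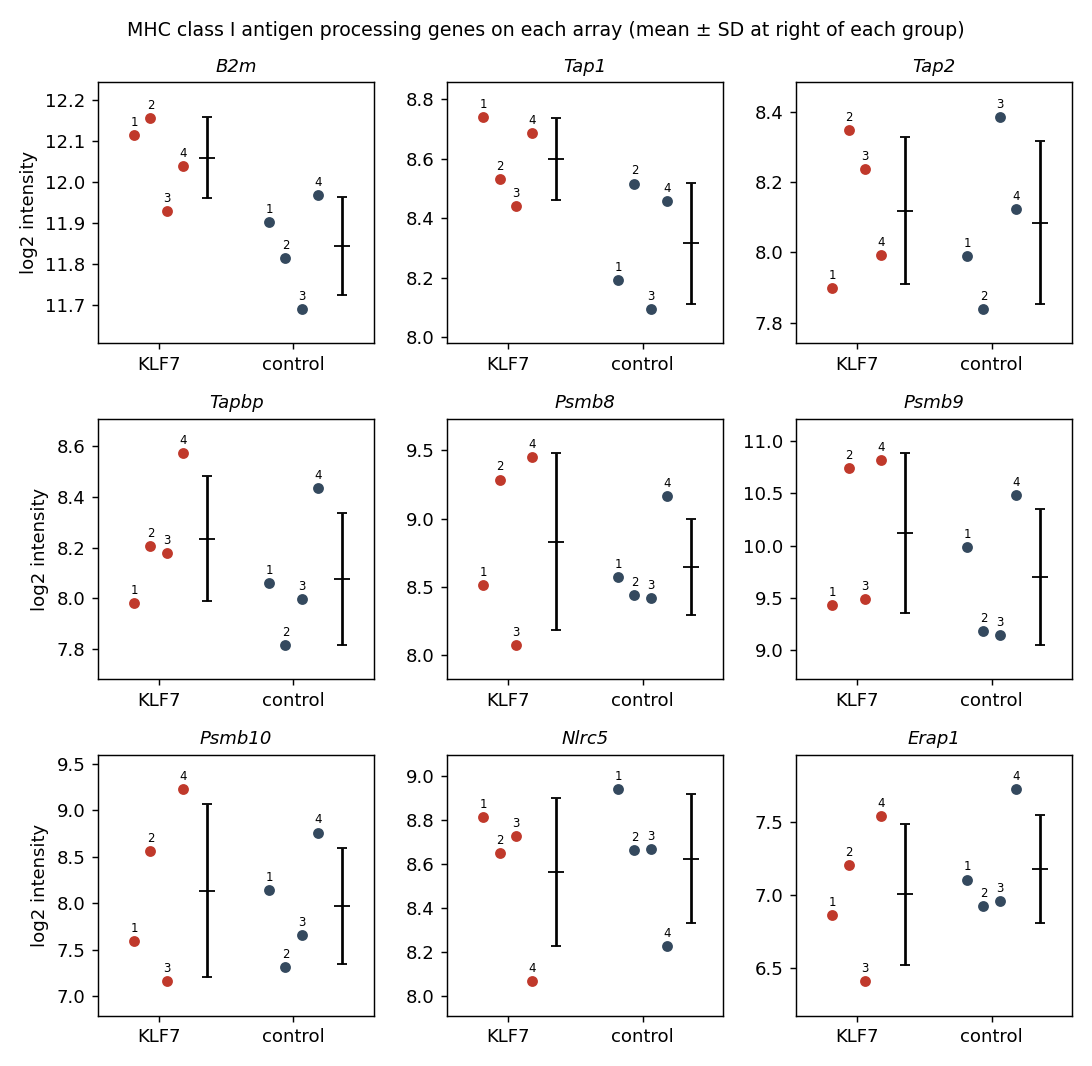
Log2 intensity (vertical axis) of the 9 genes on each KLF7 array (red, left) and control array (dark, right), numbered by replicate, with mean ± SD of 4 arrays beside each group. B2m and Tap1 come nearest to separated groups, with 1 control array above the lowest KLF7 array for B2m, while Psmb8, Psmb9 and Psmb10 spread by over 1 log2 unit among the KLF7 arrays.

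B2m encodes beta-2 microglobulin, the light chain shared by all class I molecules. Its level was 12.12, 12.15, 11.93 and 12.04 log2 intensity on KLF7 arrays 1 to 4, against 11.90, 11.81, 11.69 and 11.97 on control arrays 1 to 4. Only the array labelled control 4 reached into the KLF7 range, above KLF7 3. The means were 12.06 ± 0.10 on KLF7 arrays and 11.84 ± 0.12 on control arrays (SD, n = 4 each), a difference of 0.22 log2 (1.16-fold) with a 95% interval of -0.11 to 0.54 in limma (adjusted p = 0.796). The exact two-sided permutation test of B2m gave p = 0.0571, where 70 splits allow no p below 0.0286. The difference lay between 0.16 and 0.31 over the 20 alternative settings. Those that add a block or batch term, change the prior or leave out dim genes return the main difference by design. Averaging probe sets does so too, as B2m has 1.

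Tap1 and Tap2 encode the subunits of the peptide transporter. Tap1 was at 8.74, 8.53, 8.44 and 8.69 log2 intensity on KLF7 arrays 1 to 4, against 8.19, 8.52, 8.10 and 8.46 on control arrays 1 to 4. The arrays labelled control 2 and control 4 lay above KLF7 3 and below the other KLF7 arrays, so the groups overlapped at that 1 KLF7 array. Tap1 averaged 8.60 ± 0.14 on KLF7 arrays and 8.32 ± 0.20 on control arrays (SD, n = 4 each), a difference of 0.28 log2 (1.22-fold, 95% interval -0.10 to 0.67, limma adjusted p = 0.767, exact permutation p = 0.114). Its difference lay between 0.21 and 0.37 over the 20 alternative settings, and the settings that could not move B2m could not move Tap1 either. Tap2 was at 7.90, 8.35, 8.24 and 7.99 log2 intensity on KLF7 arrays 1 to 4, against 7.99, 7.84, 8.39 and 8.12 on control arrays 1 to 4. The highest and the lowest Tap2 values were both on control arrays, and the ranges lay almost wholly over each other. The Tap2 difference was 0.03 log2 with a 95% interval of -0.38 to 0.45 (limma adjusted p = 0.988), and its sign turned without the arrays labelled KLF7 2, KLF7 3 or control 2, where it lay between -0.048 and -0.0056. Whether the subunits differ in response was not tested.

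Tapbp encodes tapasin, which bridges the transporter and the empty class I molecule. It was at 7.98, 8.21, 8.18 and 8.57 log2 intensity on KLF7 arrays 1 to 4, against 8.06, 7.82, 7.996 and 8.43 on control arrays 1 to 4. The arrays numbered 4 were the highest of their groups and the groups overlapped. Tapbp differed by 0.16 log2 (95% interval -0.28 to 0.60, limma adjusted p = 0.939), and by 0.05 (without KLF7 4) to 0.28 (without control 4) when 1 array was left out.

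Psmb8, Psmb9 and Psmb10 encode the inducible catalytic subunits, which replace the constitutive ones to form the immunoproteasome. Psmb8 was at 8.51, 9.29, 8.07 and 9.45 log2 intensity on KLF7 arrays 1 to 4, against 8.57, 8.44, 8.41 and 9.16 on control arrays 1 to 4. Psmb9 was at 9.43, 10.74, 9.49 and 10.82 on KLF7 arrays 1 to 4, against 9.98, 9.19, 9.15 and 10.48 on control arrays 1 to 4. Psmb10 was at 7.59, 8.56, 7.16 and 9.23 on KLF7 arrays 1 to 4, against 8.15, 7.31, 7.66 and 8.76 on control arrays 1 to 4. In all 3 genes the arrays labelled KLF7 4, KLF7 2 and control 4 were the highest, so high and low values stood in both groups.

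The spread among arrays of 1 group exceeded the difference between the groups for each of the inducible subunits. Psmb9 had the largest difference of the 9 genes, 0.42 log2 (1.34-fold), at 10.12 ± 0.76 on KLF7 arrays and 9.70 ± 0.65 on control arrays (SD, n = 4 each), with a 95% interval of -0.48 to 1.32 (limma adjusted p = 0.900). Leaving out 1 array gave 0.19 (KLF7 4) to 0.68 (control 4) for Psmb9, array weights gave 0.71, and leaving out both KLF7 2 and control 2 gave 0.04. Psmb8 differed by 0.18 (95% interval -0.52 to 0.89, adjusted p = 0.951 in limma) and Psmb10 by 0.17 (95% interval -0.83 to 1.16, adjusted p = 0.971 in limma). Without the array labelled KLF7 4 the differences were -0.023 for Psmb8 and -0.20 for Psmb10, and Psmb10 was also at -0.054 without control 2.

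**Figure D2:**
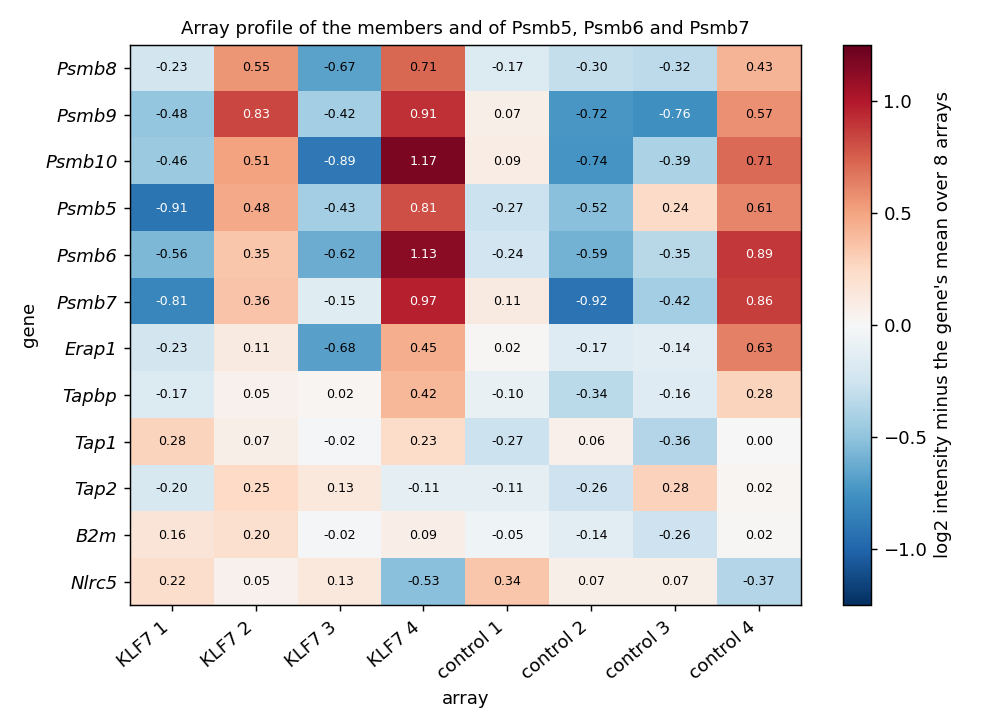
Log2 intensity of each gene (rows) on each array (columns: 4 KLF7, then 4 control) minus that gene's mean over the 8 arrays, red above and blue below it. Psmb8, Psmb9, Psmb10, the constitutive Psmb5, Psmb6 and Psmb7, and Erap1 are high on KLF7 2, KLF7 4 and control 4. The kept probe set of Nlrc5 is lowest on both arrays numbered 4, which does not hold for all its probe sets.

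The constitutive catalytic subunits followed the same arrays. Psmb5, Psmb6 and Psmb7 each had KLF7 2, KLF7 4 and control 4 as the 3 highest arrays, as did Psmb8, Psmb9, Psmb10, Tapbp and Erap1 among the 9 members (5 of 9), against 8.19% of all genes. This set of arrays was picked after the values were seen, and its excess was not tested. Psmb5 was at 8.30, 9.69, 8.78 and 10.02 log2 intensity on KLF7 arrays 1 to 4, against 8.94, 8.69, 9.45 and 9.82 on control arrays 1 to 4, a difference of -0.027 (95% interval -0.88 to 0.83). Psmb6 differed by 0.15 (95% interval -0.80 to 1.10) and Psmb7 by 0.18 (95% interval -0.78 to 1.14), neither past the test. The differences of the inducible subunits (0.17 to 0.42) thus stand beside those of the constitutive subunits (-0.027 to 0.18), with intervals that cover each other, and no change in the ratio of both kinds was tested. Of 8 neutrophil markers 5, Elane, Mpo, Ltf, S100a8 and S100a9, were lowest on the arrays numbered 4 in both groups, against 18.5% of all genes. Mmp8 was highest there, as were 18.9% of all genes. The other marker lists had smaller shares lowest there. Of 12 monocyte, macrophage and dendritic markers 0 were lowest and 3 highest, and of 10 T and NK cell markers 3 were lowest and 0 highest. Of 5 B cell markers 0 were lowest and 1 was highest. Genes of the path were often high there: of 9 proteasome activator and assembly genes 8 were highest on the arrays numbered 4 in both groups. In 7 of these 9, KLF7 2, KLF7 4 and control 4 were the 3 highest arrays. Of 10 interferon receptor and signalling genes 4 were highest and 1 lowest on the arrays numbered 4. The mean log2 level of the neutrophil list was 7.56 to 9.70 on KLF7 arrays and 7.45 to 9.51 on control arrays, lowest on KLF7 4 and control 4. The part of neutrophil genes in the array profile of the class I genes was not tested. Leaving out both arrays numbered 4 gave 0.15 for Psmb8, 0.45 for Psmb9 and 0.07 for Psmb10.

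Psmb9 and Tap1, which share the stretch shown above, did not have the same array order. Psmb9 was highest on KLF7 4 and ranged over 1.67 log2 units across the 8 arrays, and Tap1 was highest on KLF7 1 and ranged over 0.64. On KLF7 1, where Tap1 had its highest value (8.74), Psmb9 (9.43) was the lowest of the KLF7 arrays.

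Erap1 encodes the aminopeptidase of the endoplasmic reticulum that trims peptides to the length class I molecules hold. It was at 6.86, 7.20, 6.41 and 7.54 log2 intensity on KLF7 arrays 1 to 4, against 7.11, 6.93, 6.96 and 7.72 on control arrays 1 to 4. The arrays numbered 4 were again the highest of their groups, and the highest of all was a control array. Erap1 differed by -0.17 log2 (95% interval -0.76 to 0.42, limma adjusted p = 0.944), and the sign turned, to 0.025 and 0.0084, when KLF7 3 or control 4 was left out.

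Nlrc5 encodes the transactivator of class I genes. Its kept probe set was at 8.81, 8.65, 8.73 and 8.07 log2 intensity on KLF7 arrays 1 to 4, against 8.94, 8.67, 8.67 and 8.23 on control arrays 1 to 4. In this probe set the arrays numbered 4 were the lowest of their groups, the reverse of the proteasome genes. The groups overlapped over nearly their whole range. The difference was -0.060 log2 (95% interval -0.56 to 0.44, limma adjusted p = 0.980), with 0.11 when KLF7 4 was left out and 0.044 when control 1 was left out. Of the 19 probe sets of Nlrc5, 5 had a higher and 14 a lower mean on the KLF7 arrays, from -0.52 to 0.31 with a median of -0.10. The groups overlapped in all 19, so the choice of probe set can turn the sign of Nlrc5. The array pattern depends on that choice too. In probe set 10574149 KLF7 4 was the highest KLF7 array (7.97), and in 10574098 KLF7 3 was the lowest (6.77). The probe sets share 1 gene and 1 set of arrays and are not replicates.

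**Figure D3:**
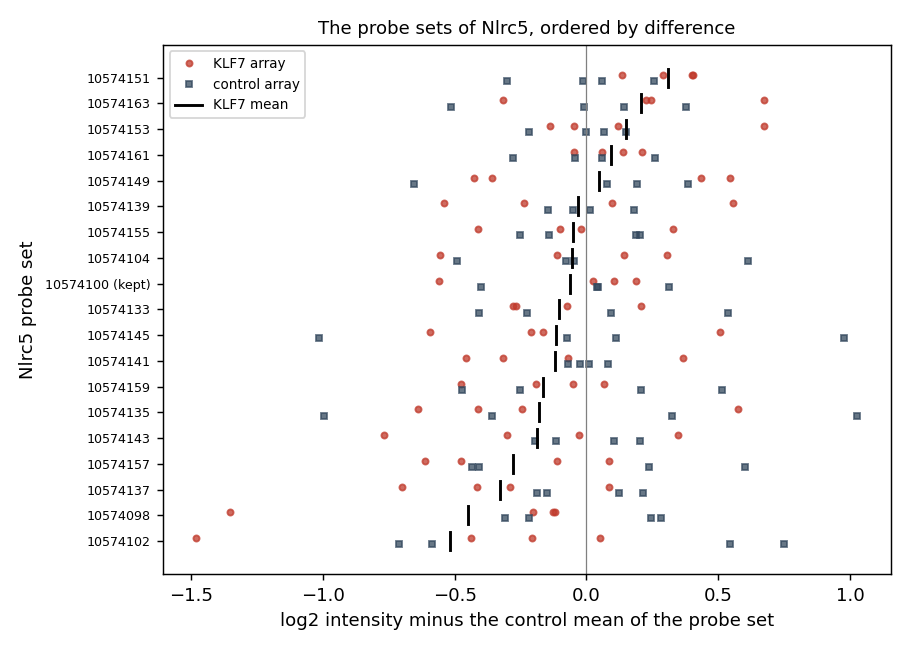
Log2 intensity of the 19 Nlrc5 probe sets (vertical axis, by probe set number) on the KLF7 arrays (red circles) and control arrays (dark squares), each minus the control mean of that probe set, with a black bar at the KLF7 mean. The bars run from -0.52 to 0.31 and the arrays of both groups overlap in every probe set.

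Other genes of the class I path were taken from lists, of which 57 of 69 genes written were measured outside class II. Of these 57, 32 had a higher and 25 a lower mean, with a median of 0.03 log2 against 0.0019 over all genes, and 0 passed over all genes in limma. At an unadjusted p under 0.05 there were 3 (Ciita, Relb and Jak2), all higher, against 4.65% of all genes that were higher at that p. The groups did not overlap in 4 of the 57, against 5.22% of all genes, which is near that share. H2-K1 and H2-D1, the classical heavy chain genes, lie on probe sets given to several genes and are not analysed here. Of the 10 other heavy chain and related genes, 5 were higher and 5 lower, with a median of -0.014. H2-M3, a heavy chain that presents formylated peptides, had the smallest p among them, at 7.81, 7.31, 6.98 and 7.41 log2 intensity on KLF7 arrays 1 to 4, against 6.22, 7.39, 6.88 and 6.76 on control arrays 1 to 4. Its groups overlapped through control 2, and the difference was 0.56 (1.48-fold, 95% interval -0.012 to 1.14, adjusted p = 0.622 in limma).

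Chaperones and editors of the endoplasmic reticulum that act on class I or on folding in general had lower means for 6 of 6 genes, against 49.6% of all genes, with a median of -0.18 and none at an unadjusted p under 0.05. Calr, which encodes the lectin chaperone calreticulin, was at -0.45 (95% interval -0.98 to 0.08), its membrane-bound relative Canx at -0.28 and Pdia3, the thiol oxidoreductase that partners tapasin, at -0.20. The array labelled KLF7 1 was the lowest of the 8 for each of these 3. Of 9 genes for proteasome activators and assembly factors, 3 were higher and 6 lower. Psme2, a subunit of the PA28 activator that interferon-gamma induces, was at 0.45 (95% interval -0.22 to 1.13). Psme4, which encodes the activator PA200, was at -0.36 (95% interval -0.74 to 0.02, adjusted p = 0.632 in limma), and its KLF7 arrays all lay below the control arrays, as in 2.38% of all genes. Of 6 cytosolic peptidases, 2 were higher and 4 lower, led by Thop1, which destroys peptides in the cytosol, at -0.32 (95% interval -0.76 to 0.12).

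All 10 measured genes for interferon receptors and their signalling were higher on the KLF7 arrays, against 50.4% of all genes, with a median of 0.32 and 1 at an unadjusted p under 0.05, against 8.21% of all genes. That gene, Jak2, a kinase of the interferon-gamma receptor and of cytokine receptors, was at 10.49, 9.17, 9.36 and 9.46 log2 intensity on KLF7 arrays 1 to 4, against 9.02, 8.77, 8.82 and 8.78 on control arrays 1 to 4. All 4 KLF7 arrays lay above the control arrays, as in 2.83% of all genes, and KLF7 1 stood highest. The difference was 0.77 (1.71-fold, 95% interval 0.17 to 1.38), with an adjusted p of 0.469 in limma. Of 13 transcription regulators 10 were higher, against 50.4% of all genes, with a median of 0.17. Relb, a subunit of NF-kB, was at 0.91 (95% interval 0.34 to 1.49, adjusted p = 0.373 in limma). Its KLF7 arrays lay above the control arrays, as in 2.83% of all genes. Rela, another subunit, was at 0.32 (95% interval -0.12 to 0.75).

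The class II path, which shows peptides from outside the cell and shares its regulation with class I in part, had larger differences on the same arrays. Ciita, the class II counterpart of Nlrc5, was at 9.29, 8.32, 7.995 and 8.11 log2 intensity on KLF7 arrays 1 to 4, against 7.03, 7.84, 6.72 and 7.09 on control arrays 1 to 4. All 4 KLF7 arrays lay above the control arrays, as in 2.83% of all genes. Ciita differed by 1.26 (2.4-fold, 95% interval 0.55 to 1.97, adjusted p = 0.327 in limma). The 5 class II genes measured differed by 1.00 to 1.42. Their lower bounds were 0.43 (H2-Aa), 0.418 (H2-Eb1), 0.14 (H2-Ab1), 0.09 (Cd74) and -0.00028 (H2-DMa, named after its values were seen). Of the 9 class I intervals, that of Erap1 ended at 0.417, below those of H2-Aa and H2-Eb1. The other class I intervals, such as that of B2m (-0.11 to 0.54), overlapped those of all 5. The interval of Ciita began above the ends of those of B2m, Tap2, Nlrc5 and Erap1. The class II genes did not pass over all genes either, and the difference between both paths was not tested. Markers of monocytes, macrophages and dendritic cells, which carry much class II, also had higher means in KLF7 cells for 10 of 12 genes, against 50.4% of all genes. Of these, 4 had an unadjusted p under 0.05, against 4.65% of all genes that were higher at that p, and 0 passed over all genes in limma. The mean log2 level of that list was 6.58 to 7.29 on KLF7 arrays and 6.06 to 6.84 on control arrays, and its part in the class I and class II values was not tested. Itgax, which encodes CD11c, differed by 1.29 (95% interval 0.44 to 2.13, adjusted p = 0.392 in limma). It was the 1 of 12 in that list without overlap, with the KLF7 arrays above, as in 2.83% of all genes.

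**Figure D4:**
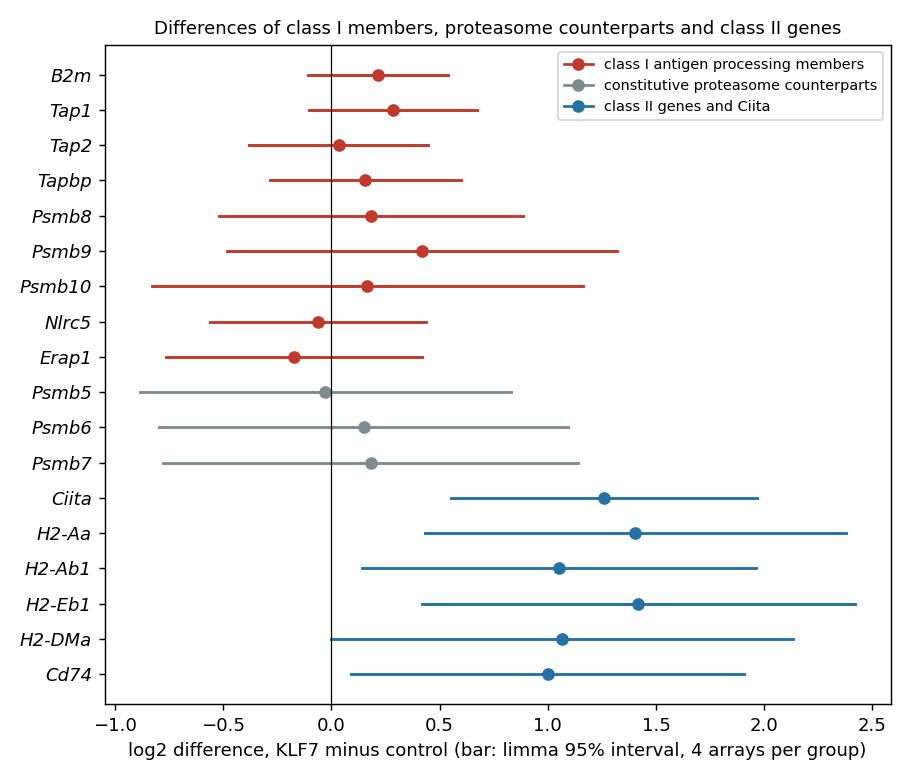
Log2 difference of KLF7 minus control (horizontal axis; point, with limma's 95% interval as bar, 4 arrays per group) for the 9 class I genes (red), Psmb5, Psmb6 and Psmb7 (grey), and Ciita and 5 class II genes (blue). The 9 class I intervals all include 0, the unadjusted intervals of Ciita, H2-Aa, H2-Ab1, H2-Eb1 and Cd74 lie above 0, and that of H2-DMa reaches it (-0.00028 to 2.13).

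The genes whose array pattern lay nearest to the mean of the 9, among genes brighter than the median gene, were Commd4, Ubqln2, BC029722, Sdf4 and Txnl4a. The root mean square distance between each and that mean, after centring over the 8 arrays, was 0.079 to 0.098 log2. None passed the test between the groups, with differences of 0.08 (Ubqln2) to 0.25 (Commd4). They share the high arrays KLF7 2, KLF7 4 and control 4 with the proteasome genes. The mean of the 9 was itself highest on these arrays. The sharing therefore largely follows from choosing genes by their distance to that mean, and it is not a separate observation.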

How the data were processed

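Sorted mouse KLS cells were measured on 4 KLF7 and 4 control arrays. The deposited intensity values are on a linear scale (2.20 to 15393) and come from RMA, run by the authors in Affymetrix Expression Console according to the submitters' processing notes. Their versions and a genome build were not given in the sources used here. RMA normalises between arrays, which removes shifts shared by all genes, and amplification of the RNA can compress differences.

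Log2 was taken, 21789 of 35554 probe sets had 1 gene symbol, and the brightest per gene gave 19938 genes, 21698 of the probe sets matching RefSeq by Entrez number. All genes were fitted in limma 3.58.1 (R 4.3.3; lmFit, eBayes with trend, group only), two-sided, with Benjamini-Hochberg adjustment over all genes, a threshold of 0.05 and 95% intervals. Single values were also tested by exact permutation. The fit was tested on simulated data. Alternatives left out arrays, used a block or a batch term, normalised again, weighted arrays, or changed the prior, the dim-gene filter and the probe set rule. Named were the 9 members, Klf7, up to 4 genes per list by smallest p with Psmb5, Psmb6 and Psmb7, and the 5 nearest patterns. Kit, Cd34, Flt3, Slamf1, the neutrophil genes and H2-DMa were named after their values were seen. Members and lists were chosen with earlier results of these data known. Figures used matplotlib 3.10.9.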

Additional observations from a re-analysis of the deposited data

Results flagged for a closer look

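Among the 84 groups of 4 arrays of the 42 genes examined, 4 held an array far from its group, where chance flags about 1 in 20 groups, and none of these was a group of the 9 class I genes or of Klf7. The heavy chain gene H2-Q4 was at 6.06 log2 intensity on the array labelled KLF7 3, against 6.68 to 6.74 on the other KLF7 arrays. H2-Q10 was at 4.33 on the same array, against 4.54 to 4.56 on the other KLF7 arrays. The proteasome assembly gene Psmg2 was at 8.16 on the array labelled control 4, against 7.37 to 7.44 on the other control arrays. Cd74, the invariant chain of class II, was at 9.34 on the array labelled control 3, against 10.87 to 11.15 on the other control arrays.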

How the results depend on the processing

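No member passed in any of 20 settings (smallest adjusted p 0.524, limma), and 167 of 180 member values kept their direction. B2m, Tap1, Tapbp and Psmb9 kept it throughout. Part of this was fixed in advance. The block, the batch term, a changed prior and the dim-gene filter return the difference of the main fit by design. Averaging probe sets could move Nlrc5 only. The count of 167 therefore overstates how stable the directions are. Leaving out 1 array at a time gave -0.048 to 0.13 for Tap2, -0.023 to 0.44 for Psmb8, -0.20 to 0.49 for Psmb10, -0.19 to 0.11 for Nlrc5 and -0.35 to 0.025 for Erap1. Without KLF7 2 and control 2 the median of the members was -0.037, with Tap2 at -0.12, Psmb8 at -0.037 and Psmb10 at -0.20; the cause was not tested. Over all genes 0 passed, 0 to 1 when 1 array was left out, 26 with a batch term for the arrays numbered 4, and 1637 at an unadjusted p under 0.05. With the replicate number as a block 90 genes passed, among them 1 other gene of the path, H2-Aa, and the markers Itgax and Klrd1. The labels do not say that the numbers pair the arrays, so the main fit used group only. Deviations of arrays of the same number correlated at 0.350, -0.126, 0.362 and 0.699 for numbers 1 to 4. For 3 of the 4 KLF7 arrays the control array of their own number correlated best, so a shared effect of the number is possible and the main intervals ignore it. The number of arrays also limits what can be seen: the interval of Psmb10 spans -0.83 to 1.16 in the main fit. Its standard error was 0.450 there and 0.286 with the block.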
